A study of Mus musculus with 60 samples.

Results

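Gene expression was compared between mouse cancer-associated fibroblasts (CAFs) that had been aggregated with 344SQ cells and CAFs that had been aggregated with 393P cells. These are 6 of the 60 libraries of the study, 3 biological replicates for each cancer cell line, and every gene of the aggregate count table was considered. 344SQ and 393P are cell lines from mouse lung adenocarcinomas, and 344SQ is known as metastatic and 393P as poorly metastatic. The labels call the fibroblasts tCAFs, state that flow sorting enriched them ahead of RNA extraction, and give neither strain, age nor culture time. The 3 libraries of CAFs aggregated alone, titled CAF-GFP, and CAFs grown across a Boyden chamber membrane from 344SQ or 393P cells, with 5 biological replicates for each line, were used only to place the difference. With 1 line on each side, metastatic capacity and every other property of the lines cannot be told apart, and where the fibroblast replicates share an isolate the errors describe only the spread between these samples.

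CAFs are the activated fibroblasts of a tumour. They deposit collagens and other matrix, secrete growth factors, cytokines and complement, and are often described as myofibroblastic, with contractile and matrix genes, or inflammatory, with cytokine and complement genes. Multicellular aggregates bring fibroblasts and cancer cells into direct contact, so signals that need contact, such as Notch, can act beside secreted ones. In Notch signalling a ligand such as Jagged on one cell activates a Notch receptor on its neighbour, and the released receptor fragment switches on genes of the Hes and Hey families.

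The 344SQ libraries held 944490, 951000 and 1090336 counts and the 393P libraries 1104206, 1258751 and 991901. Levels are counts scaled to a common library size (CPM) with trimmed-mean (TMM) factors, and differences are log2 differences, 344SQ minus 393P, with their standard error (SE). In 344SQ replicate 2 the scaling factor, 0.887, was the lowest of the aggregates and the mitochondrial genome took 24.3% of counts, against 19.0% to 22.8% in the other 8 aggregate libraries. Fibroblast markers were high in sum in every library, with summed levels, without TMM factors, of 3827 to 4248 CPM with 344SQ and 5182 to 5814 CPM with 393P. Of the 24 markers 19 to 21 had counts in each of these libraries, and Lum and Ly6c1 were at 0 in most of them. All summed marker levels are scaled by library total alone. Carcinoma markers, 30 genes, summed to 28.6, 32.6 and 52.3 CPM with 344SQ and to 30.8, 48.5 and 119 CPM with 393P, against 26.4 to 33.4 CPM in CAFs alone, and none passed the count filter. Epcam, a defining carcinoma marker, had 0 counts in each 344SQ library and 0, 1 and 0 counts in the 393P libraries. The leukocyte genes Ptprc and Adgre1 and the endothelial genes Cdh5, Tie1 and Cldn5 had 0 counts in all these libraries. Other members of both lists had some. Cd68 had 18, 7 and 12 counts with 344SQ and 5, 6 and 17 with 393P. Csf1r had 2, 6 and 6 counts with 344SQ and 2, 6 and 7 with 393P. Cd14 had 4, 7 and 6 counts with 344SQ and 0 in each 393P library. Pecam1 had 1, 4 and 9 counts with 344SQ and 1, 6 and 2 with 393P. Ptprb had 0, 5 and 2 counts with 344SQ and 6, 5 and 7 with 393P. The 393P libraries thus include 1, replicate 3, with more carcinoma marker RNA than the rest.

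Expression in the fibroblast libraries differed with the cancer cell line. The part of RNA from cancer cells low in the carcinoma markers, or of a changed mix of cells, was not tested. With 344SQ the genes Il33, Penk, Sfrp2, Grem1 and Igf1 and 6 of 10 complement and acute phase genes were higher, and Heyl, Notch3, Notch1, Jag1, Postn, Pdgfrb and 11 of 19 collagen genes were lower. An edgeR quasi-likelihood test with Benjamini-Hochberg adjustment called 332 of 7992 genes (4.15%) at an adjusted p under 0.05, 177 higher with 344SQ (2.21%) and 155 lower (1.94%). The log2 difference exceeded 1 in size for 116 of the higher and 87 of the lower genes, and 2 for 25 and 27. All replicates of one line stood apart from all of the other for 169 of the higher and 146 of the lower genes called, against 17.9% of all genes tested. The calls were made on the same values, so this separation is a description. Gene lists and their members were chosen with earlier results of these data known, so the list counts below are descriptions too. The median difference over all genes tested was 0.01. Leaving out each of the 9 aggregate libraries in turn, 86 of the higher and 78 of the lower genes kept their call every time.

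**Figure D1:**
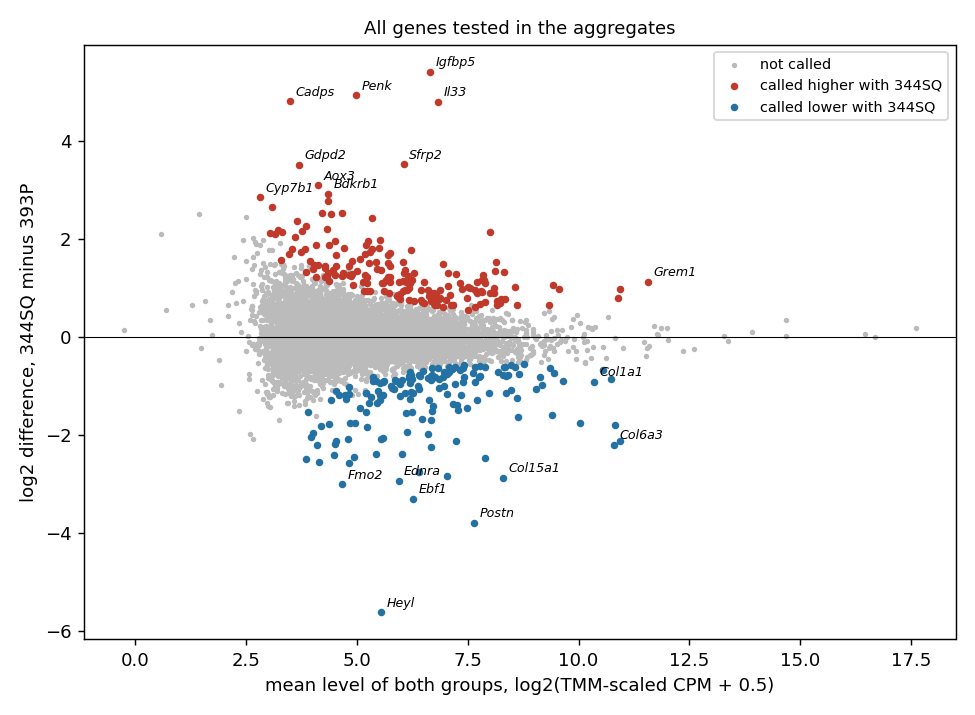
Each point is 1 of the 7992 genes tested in the aggregates, with the mean level of both groups on the horizontal axis, as log2(CPM + 0.5), and the log2 difference, 344SQ minus 393P, on the vertical axis. Red points are the 177 genes called higher with 344SQ and blue points the 155 called lower; Igfbp5 at 5.42 and Heyl at -5.62 mark the ends.

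Among the genes with the largest rise were secreted signals. Igfbp5 (ENSMUSG00000026185.8, chromosome 1, 72857932 to 72874884), which encodes an insulin-like growth factor binding protein, had 25.7, 46.1 and 517 CPM with 344SQ, against 0.938, 8.72 and 3.13 CPM with 393P. The groups did not overlap, but 344SQ replicate 3 stood far above the other replicates. The log2 difference was 5.42 ± 0.80 (SE, adjusted p = 4.12e-05), and 2.94 without that replicate, still called. The RefSeq promoter of Igfbp5 (GRCm38.p6, chr1:72874816-72875115, minus strand, 250 bases before to 50 after the start) is shown because Igfbp5 heads the genes that were higher; capitals mark its single match to CATTCC, the TEAD motif, which begins 233 bases before the start.
Igfbp5 promoter: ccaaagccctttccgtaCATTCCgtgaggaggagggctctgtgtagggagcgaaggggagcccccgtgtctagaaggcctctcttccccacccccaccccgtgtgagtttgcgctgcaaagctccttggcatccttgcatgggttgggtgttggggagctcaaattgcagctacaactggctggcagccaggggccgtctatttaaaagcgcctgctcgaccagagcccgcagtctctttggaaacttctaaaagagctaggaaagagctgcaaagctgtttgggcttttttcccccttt

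Penk (ENSMUSG00000045573.9, chromosome 4, 4133531 to 4138819) encodes proenkephalin, the precursor of enkephalin peptides. It had 31.9, 84.9 and 64.4 CPM with 344SQ and 0.938, 0.793 and 4.18 CPM with 393P. Every 344SQ library lay above every 393P library (4.94 ± 0.50, adjusted p = 4.83e-08). A gene on the other strand overlaps 14.3% of the exonic length of Penk, so its count is uncertain. Il33 (ENSMUSG00000024810.16, chromosome 19, 29925114 to 29960718), the gene of an alarmin cytokine, had 104, 161 and 389 CPM with 344SQ, against 4.69, 2.38 and 17.8 CPM with 393P, and 48.3, 59.5 and 37.6 CPM in CAFs alone. CAFs alone lay between the lines, above all 393P and below all 344SQ libraries. The difference between the lines was 4.81 ± 0.44 (adjusted p = 7.9e-09).

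Sfrp2 (ENSMUSG00000027996.13, chromosome 3, 83766321 to 83774316), which encodes a secreted modulator of Wnt signalling, had 128, 136 and 102 CPM with 344SQ and 4.69, 10.3 and 16.7 CPM with 393P. Replicates were close with 344SQ and spread from 4.69 to 16.7 CPM with 393P, and the difference was 3.53 ± 0.31 (adjusted p = 3.08e-09). A gene on the other strand overlaps 16.1% of the exonic length of Sfrp2, so its count is uncertain. Cadps, whose product primes dense-core vesicles for release, had 60 counts in all over the 344SQ libraries and 2 over the 393P libraries, a ratio of 34.3 with a 95% interval of 9.10 to 290.0 that covers counting error only (adjusted p = 7.16e-05). Its fitted difference of 4.82 became 7.40 without 393P replicate 3, the replicate that held those 2 counts. Bdkrb1, a bradykinin receptor gene, had 35, 44.9 and 27.1 CPM with 344SQ and 3.75, 7.14 and 2.09 CPM with 393P (2.93 ± 0.41, adjusted p = 1.75e-05). Gdpd2, which encodes a glycerophosphodiester phosphodiesterase, had 20.6, 23 and 24.3 CPM with 344SQ and 0.938, 0 and 5.22 CPM with 393P (3.52 ± 0.59, and 5.36 without 393P replicate 3). For both genes each 344SQ library exceeded each 393P library.

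The remaining genes of the largest rise were more varied. Ism1, a secreted protein gene, had 37.0, 29.1 and 37.3 CPM with 344SQ and 3.75, 1.59 and 10.4 CPM with 393P (2.77 ± 0.43). Cd53, which encodes a tetraspanin best known from leukocytes, had 38.0, 53.3 and 36.4 CPM with 344SQ and 4.69, 11.1 and 5.22 CPM with 393P (2.53 ± 0.38). The list of 16 leukocyte markers summed to 28.6, 27.3 and 30.3 CPM with 344SQ and to 7.25, 11.9 and 28.2 CPM with 393P, with Ptprc and Adgre1 at 0 throughout; the part of leukocyte RNA in the Cd53 difference was not tested. Aox3 (an aldehyde oxidase), Cyp7b1 (an oxysterol hydroxylase), Ildr2, Epha7 (an ephrin receptor) and Tgfbi (a matrix adhesion protein) differed by 3.11 ± 0.44, 2.86 ± 0.64, 2.53 ± 0.46, 2.52 ± 0.39 and 2.42 ± 0.43. Eya4, a transcriptional coactivator gene, differed by 2.66 ± 0.64, and by 4.49 without 393P replicate 2; leaving out 344SQ replicate 1 or 393P replicate 1 ended its call. In these 6 genes CAFs alone stood nearer to 344SQ than to 393P: Aox3, for example, had 47.4, 30.4 and 57.5 CPM in CAFs alone, against 18.5, 42.4 and 29.9 CPM with 344SQ and 4.69, 2.38 and 3.13 CPM with 393P.

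**Figure D2:**
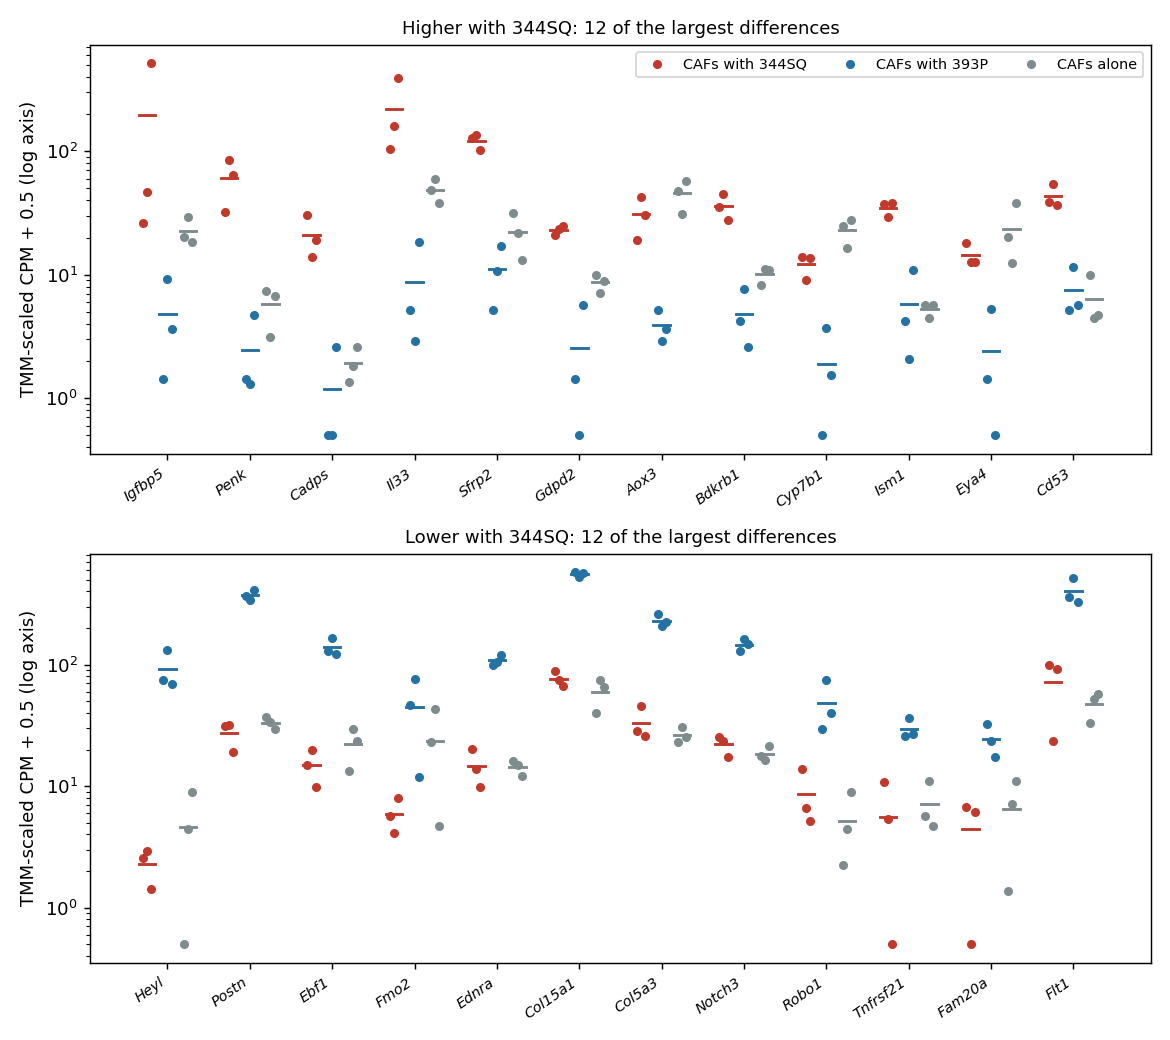
Levels in CPM + 0.5, on a log axis, of 12 genes with the largest rise (top) and 12 with the largest fall (bottom) among the genes called with groups that did not overlap; points are libraries and lines are means over 3 replicates. Red is CAFs with 344SQ, blue CAFs with 393P and grey CAFs alone. In the lower panel the 393P points stand above the 344SQ points for every gene, and the grey points lie mostly at the level of 344SQ.

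The Notch pathway gave the largest fall. Heyl (ENSMUSG00000032744.4, chromosome 4, 123233556 to 123249875), a transcriptional repressor gene that Notch switches on, had 2.06, 2.42 and 0.933 CPM with 344SQ, against 74.1, 130 and 69.0 CPM with 393P, and 0, 3.96 and 8.36 CPM in CAFs alone. The 344SQ libraries were at the low level of CAFs alone, and all 393P libraries were far above (-5.62 ± 0.50, adjusted p = 4.43e-09). The receptor gene Notch3 had 24.7, 23 and 16.8 CPM with 344SQ and 129, 162 and 146 CPM with 393P (-2.76 ± 0.22, adjusted p = 7.67e-10). Notch1 had 95.6, 54.6 and 87.7 CPM with 344SQ and 196, 232 and 188 CPM with 393P (-1.36 ± 0.21, adjusted p = 6.99e-05). The receptors did not move together. Notch2 had 333, 272 and 277 CPM with 344SQ and 144, 152 and 169 CPM with 393P, so it was higher with 344SQ (0.92 ± 0.16, adjusted p = 0.000266). The ligand gene Jag1 had 49.4, 19.4 and 46.6 CPM with 344SQ and 107, 116 and 116 CPM with 393P (-1.52 ± 0.24, adjusted p = 0.00011). Against CAFs alone, Jag1 differed by -0.68 ± 0.26 with 344SQ (adjusted p = 0.141) and by 0.84 ± 0.23 with 393P (adjusted p = 0.0143). Of 7 Notch targets listed only Heyl and Hes1 passed the count filter, and Hes1 had a difference of -0.96 ± 0.30 that did not pass the test (adjusted p = 0.0686). Of the 9 genes of Notch processing and regulation that were tested, 0 were called, with a median of 0.01. At 4.15% called over all genes, that count is near the background. Every call between 344SQ and 393P in this paragraph was kept when each library was left out.

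Postn (ENSMUSG00000027750.16, chromosome 3, 54361109 to 54391037), which encodes the matricellular protein periostin, had the smallest adjusted p of all genes. It had 30.8, 31.5 and 18.7 CPM with 344SQ, against 367, 337 and 411 CPM with 393P, and 36.2, 33.0 and 29.3 CPM in CAFs alone. 344SQ and CAFs alone overlapped, and 393P lay above both (-3.79 ± 0.20 between the lines, adjusted p = 1.16e-13). Its promoter (GRCm38.p6, chr3:54360857-54361156, plus strand) is shown as that of the most firmly called gene; it holds no match to any of the 4 motifs searched, so no base is in capitals.
Postn promoter: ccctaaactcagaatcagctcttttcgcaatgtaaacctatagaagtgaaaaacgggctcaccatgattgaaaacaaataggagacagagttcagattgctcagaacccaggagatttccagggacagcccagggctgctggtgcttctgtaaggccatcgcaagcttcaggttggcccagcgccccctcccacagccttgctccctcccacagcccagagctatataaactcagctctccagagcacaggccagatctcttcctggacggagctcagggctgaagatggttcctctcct

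Of 19 collagen genes tested 11 were lower with 344SQ, against 1.94% of all genes tested. Of the 7 fibrillar collagen genes tested 4 were called lower and 0 higher, with a median difference of -0.81, and of 12 other collagen genes 7 were lower and 0 higher, with a median of -1.44, against 0.01 over all genes. Each of the 11 kept its call without each library in turn. Col6a1, Col6a2 and Col6a3 encode the chains of collagen VI, a microfibril former of the pericellular matrix. Col6a3 had 551, 519 and 831 CPM with 344SQ and 3009, 2926 and 2814 CPM with 393P (-2.20 ± 0.18). Col6a2 had 803, 666 and 730 CPM with 344SQ and 2901, 3870 and 2745 CPM with 393P (-2.11 ± 0.17). Col6a1, its neighbour on chromosome 10, had 948, 679 and 810 CPM with 344SQ and 2499, 3579 and 2372 CPM with 393P (-1.79 ± 0.18). The 3 chains thus differed by similar amounts, and no 344SQ library reached the level of a 393P library.

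The network-forming collagen IV genes Col4a1 and Col4a2, which lie side by side on chromosome 8, were lower by smaller amounts, -1.64 ± 0.17 and -1.25 ± 0.16. Col15a1 (ENSMUSG00000028339.17), of the basement membrane zone, had 87.4, 74.0 and 66.2 CPM with 344SQ and 575, 526 and 565 CPM with 393P (-2.87 ± 0.19, adjusted p = 1e-11). Col18a1, its nearest relative, had 67.9, 59.4 and 41.0 CPM with 344SQ and 149, 373 and 206 CPM with 393P (-2.13 ± 0.28). Among fibrillar collagens Col5a3 differed most, with 27.8, 44.9 and 25.2 CPM with 344SQ and 260, 208 and 221 CPM with 393P (-2.84 ± 0.21, adjusted p = 1.6e-10). Col5a1 and Col5a2, its partners in collagen V, differed by -0.75 ± 0.15 and -0.81 ± 0.16. Col1a1 (ENSMUSG00000001506.10, chromosome 11, 94936224 to 94953042), of the main fibrillar collagen, had 825, 987 and 895 CPM with 344SQ and 1666, 1361 and 2070 CPM with 393P (-0.91 ± 0.17, adjusted p = 0.000847). Its partner Col1a2 had a difference of -0.51 ± 0.16 and Col3a1 one of -0.42 ± 0.22, and neither passed the test (adjusted p = 0.0811 and 0.414). Within the fibrillar list, then, Col5a3 stood apart in size, and Col5a1, Col5a2 and Col1a1 differed by similar amounts.

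**Figure D3:**
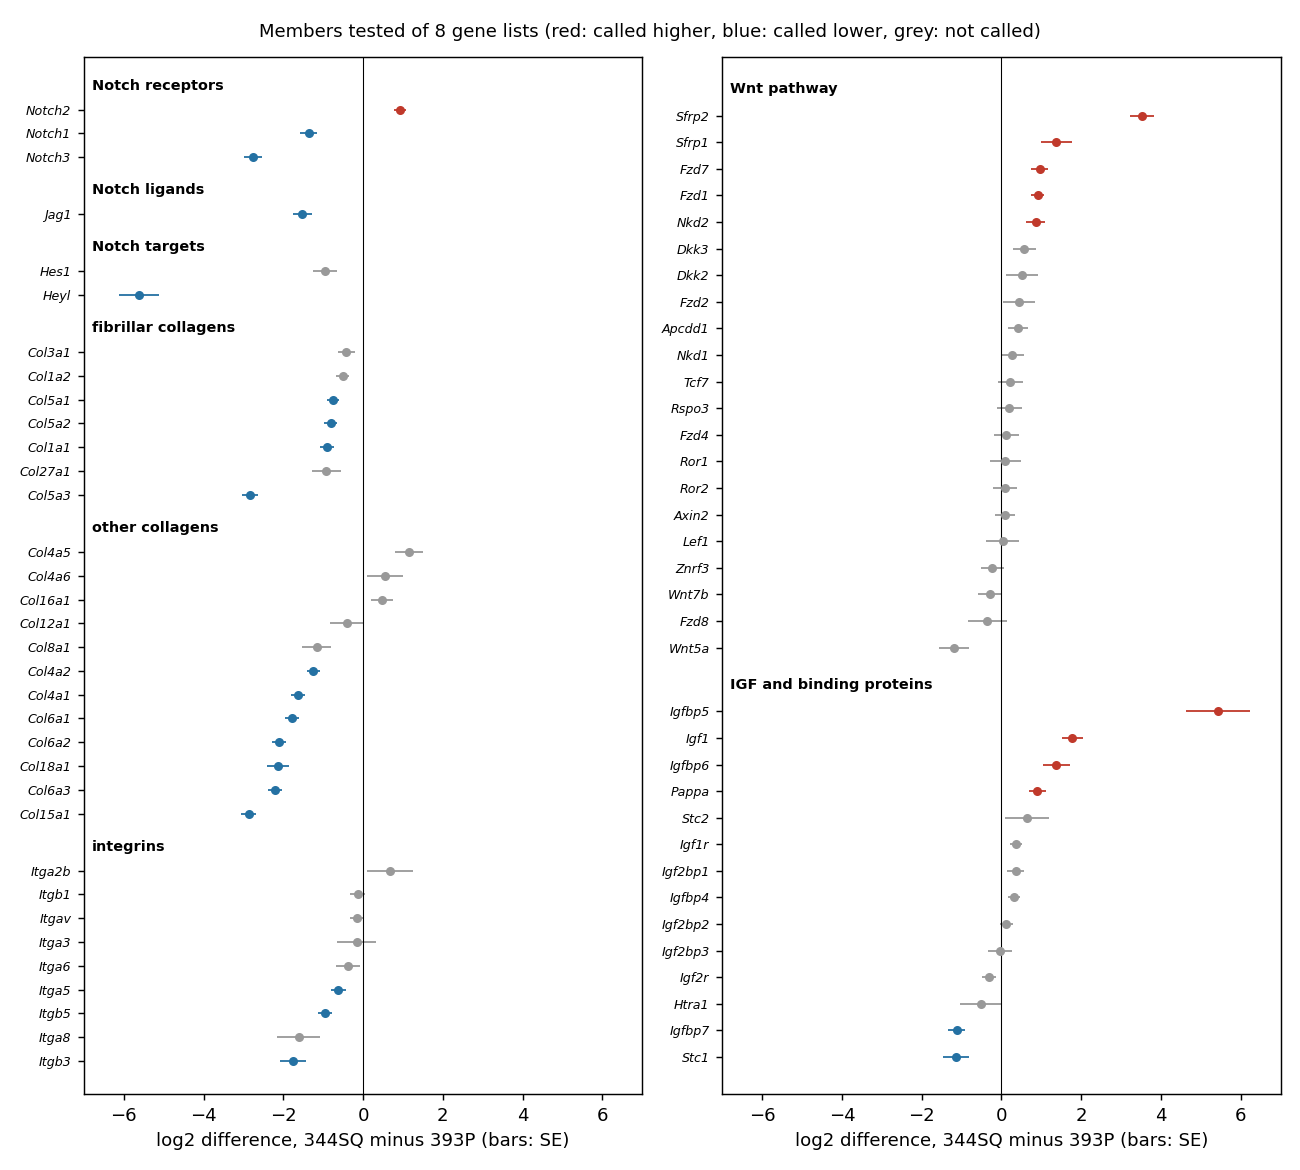
Log2 differences, 344SQ minus 393P, with SE bars, of all tested members of 8 gene lists. Red points were called higher with 344SQ, blue points lower and grey points not called. All 7 fibrillar collagen genes lie left of 0, Col15a1 at -2.87 ends the other collagens, and 5 of 21 Wnt pathway genes are red. Over all genes tested 2.21% were called higher and 1.94% lower.

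The rest of the matrix moved both ways. Over all genes tested 4.15% were called, the share beside which these list counts stand. Of 11 basement membrane genes other than collagens Agrn and Lama5 were lower (-0.85 ± 0.21 and -0.82 ± 0.20), and both calls were lost without 344SQ replicate 3, the call of Agrn also without 393P replicate 3 and that of Lama5 also without 344SQ replicate 1 or 393P replicate 1. Of 20 genes of collagen processing and crosslinking 1 was higher and 3 were lower. The higher one was the lysyl oxidase gene Loxl4 (1.26 ± 0.37), whose call ended without any single 344SQ replicate, 393P replicate 1 or 3 or CAFs alone replicate 3, and whose difference was 1.98 without 393P replicate 2. The lower ones were Adamts2, a procollagen peptidase gene, at 83.3, 90.9 and 68.1 CPM with 344SQ and 193, 225 and 262 CPM with 393P (-1.49 ± 0.18, adjusted p = 1.05e-06), Bmp1, another procollagen peptidase gene (-0.80 ± 0.17), and Loxl3, another lysyl oxidase gene (-1.03 ± 0.24). Of 11 genes of ADAMTS proteases 2 were higher and 2 lower. Adamts12 was lower (-0.94 ± 0.21) and kept its call, and Adamts4 was lower (-1.25 ± 0.35), a call that ended without 344SQ replicate 1 or 2 or 393P replicate 1. Adamts1 and Adamts5, which cleave proteoglycans, were higher, Adamts5 by 1.69 ± 0.33. Adamts1 (ENSMUSG00000022893.14, chromosome 16, 85793827 to 85803113) had 455, 331 and 457 CPM with 344SQ, against 82.6, 97.5 and 100.3 CPM with 393P, and 375, 344 and 471 CPM in CAFs alone. 344SQ and CAFs alone overlapped and 393P lay below both (2.15 ± 0.18 between the lines, adjusted p = 1.06e-09). Of 17 proteoglycan and hyaluronan genes 6 were higher and 1 lower. Podn and Vcan, a hyaluronan-binding proteoglycan, were higher by 1.51 ± 0.25 and 0.79 ± 0.16 and kept their calls, whereas 5 calls were not. Those of Sdc4 (0.62 without it), Dcn (0.63 without it) and Sdc2 were lost without 344SQ replicate 3, that of Cemip without 344SQ replicate 1 and that of Prelp without 344SQ replicate 2. The calls of Prelp, Dcn and Sdc2 were also lost without 393P replicate 1, and that of Dcn without 393P replicate 3 or any single replicate of CAFs alone.

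Abundant matrix and secreted genes were split in the same way. Grem1 (ENSMUSG00000074934.3, chromosome 2, 113746164 to 113758646), a secreted antagonist of bone morphogenetic proteins and the called gene of highest level, had 3754, 4689 and 3993 CPM with 344SQ, against 2091, 1639 and 1927 CPM with 393P, and 1104, 1516 and 1206 CPM in CAFs alone. Here both lines stood above CAFs alone and 344SQ above 393P (1.14 ± 0.16, adjusted p = 2.98e-05). Thbs1, the gene of a matricellular thrombospondin, had 2216, 2287 and 3344 CPM with 344SQ and 1653, 1144 and 1171 CPM with 393P, against 3146, 5409 and 4404 CPM in CAFs alone. All 393P libraries lay below CAFs alone, and the highest 344SQ library overlapped them (0.98 ± 0.20 between the lines). Fbn1, which encodes the microfibril protein fibrillin, had 1354, 1194 and 1078 CPM with 344SQ and 2140, 2296 and 2092 CPM with 393P (-0.85 ± 0.15); 20.1% of its exonic length overlaps a gene on the other strand, so its count is uncertain. Efemp1, of the elastic fibre list, was at 59.6, 47.3 and 72.8 CPM with 344SQ and 17.8, 19.0 and 16.7 CPM with 393P, and Fbln2, a fibulin gene, at 663, 495 and 522 CPM with 344SQ and 889, 1109 and 1115 CPM with 393P (1.75 ± 0.25 and -0.89 ± 0.16).

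Receptors that mark mural cells and vessels were lower with 344SQ. Pdgfrb, the receptor gene for platelet-derived growth factor B (ENSMUSG00000024620.11), had 493, 526 and 423 CPM with 344SQ and 1302, 1909 and 1625 CPM with 393P (-1.75 ± 0.16, adjusted p = 1.02e-08). Pdgfra, the related receptor gene, went the other way, with 364, 221 and 278 CPM with 344SQ and 131, 140 and 124 CPM with 393P (1.12 ± 0.22, adjusted p = 0.000984). No library of one line overlapped those of the other for either receptor. Of 10 mural markers the 3 tested, Notch3, Pdgfrb and Cspg4, were lower, against 1.94% of all genes tested. The call of Cspg4 (-1.28 ± 0.32) was lost without 344SQ replicate 1, 344SQ replicate 2 or 393P replicate 2, and its difference was -0.76 without the last. The mural markers Kcnj8, Rgs5, Des, Abcc9, Myh11 and Higd1b had at most 2 counts in any aggregate library, and Mcam had 0, 1 and 1 counts with 344SQ and 4, 48 and 7 counts with 393P. Of the mural markers other than those tested, 6 were thus at or near 0, and Mcam was higher in the 393P libraries, most of all in replicate 2; the part of mural cell RNA in these differences was not tested. In bulk libraries fewer cells of a type and less RNA per cell cannot be told apart.

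Flt1, a receptor gene for vascular endothelial growth factor, had 98.7, 23 and 91.4 CPM with 344SQ and 362, 518 and 329 CPM with 393P (-2.48 ± 0.27, adjusted p = 2.55e-07). Among other endothelial genes Cdh5, Tie1 and Cldn5 were at 0, whereas Pecam1, Ptprb and Vwf had up to 9, 7 and 4 counts in these libraries. The co-receptor gene Nrp1 was also lower (-1.29 ± 0.20), and the ligand gene Vegfa was higher, at 610, 566 and 352 CPM with 344SQ and 284, 228 and 240 CPM with 393P (1.02 ± 0.18, adjusted p = 0.000441). Ednra, an endothelin receptor gene, had 19.5, 13.3 and 9.33 CPM with 344SQ and 99.4, 105 and 119 CPM with 393P (-2.93 ± 0.26, adjusted p = 4.03e-09). Flt1 and Nrp1 were thus lower while their ligand gene Vegfa was higher, and Ednra, whose product binds another ligand, was lower too.

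Of 16 fibroblast and CAF surface markers tested 5 were higher (Pdgfra, Nt5e, Pdpn, Dpt and Dcn) and 3 lower (Fap, Cd248 and Col1a1). The calls of Pdpn and Dpt, like that of Dcn, ended without 344SQ replicate 3, among others. Fap, the gene of the serine protease fibroblast activation protein, had 24.7, 18.2 and 18.7 CPM with 344SQ and 132, 88.8 and 106 CPM with 393P (-2.40 ± 0.25, adjusted p = 1.06e-07). Cd248, which encodes endosialin, was lower as well (-1.14 ± 0.17). Nt5e, the gene of an ectonucleotidase, was higher (2.27 ± 0.50) and kept its call. The myofibroblast gene Acta2, smooth muscle actin, had 32.9, 13.3 and 8.40 CPM with 344SQ and 31.0, 76.9 and 121 CPM with 393P. These ranges overlap, and the call (-2.05 ± 0.46, adjusted p = 0.00534) was lost without 344SQ replicate 3, without 393P replicate 3, with DESeq2 and with carcinoma marker level as a covariate. 393P replicate 3, which held the highest Acta2 level, also held the most carcinoma marker RNA; the part of that RNA in the difference was not tested. Of 14 myofibroblastic CAF genes 2 were higher and 2 lower (28.6% called). Of 15 smooth muscle and contractile genes 0 were higher and 2 lower (13.3%), Acta2 and the myosin gene Myh9 (-0.72 ± 0.16).

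Of 9 integrin genes tested Itgb3, Itgb5 and Itga5 were lower and 0 higher (33.3% called, against 4.15% of all genes tested). Their median was -0.38, against 0.01 over all genes. Itgb3 had 14.4, 15.8 and 12.1 CPM with 344SQ and 46.9, 55.5 and 39.7 CPM with 393P (-1.76 ± 0.33), whereas the call of Itga5 (-0.62 ± 0.18) was lost without any single 344SQ replicate and without 393P replicate 1 or replicate 3. The mesenchymal cadherin gene Cdh11 was lower (-1.39 ± 0.20) and Gja1, the gene of a gap junction connexin, was higher (1.82 ± 0.29). Of 26 axon guidance genes 3 were higher and 4 lower (26.9% called). The semaphorin gene Sema5a had 371, 531 and 474 CPM with 344SQ and 232, 157 and 156 CPM with 393P (1.34 ± 0.18), and the Slit receptor gene Robo1 had 13.4, 6.06 and 4.66 CPM with 344SQ and 29.1, 74.5 and 39.7 CPM with 393P (-2.57 ± 0.42). Within this list, then, ligands and receptors moved in both directions.

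Wnt, insulin-like growth factor and transforming growth factor lists each held several calls. Of 21 Wnt pathway genes tested 5 were higher and 0 lower (23.8% called, against 4.15% of all genes tested). Their median was 0.22, against 0.01 over all genes. Sfrp2 and the receptor genes Fzd1 and Fzd7 (0.91 ± 0.17 and 0.96 ± 0.21) kept their calls, while those of Sfrp1 and Nkd2 were lost without 344SQ replicate 2 (0.40 and 0.37, against 1.38 and 0.86 with it), without 393P replicate 2 or without 393P replicate 3, and that of Nkd2 also without CAFs alone replicate 1 or 3. Axin2, a common readout of Wnt activity, was not called. Of 14 genes of insulin-like growth factors and their binding proteins 4 were higher and 2 lower (42.9% called). Igf1 (ENSMUSG00000020053.18, chromosome 10, 87858265 to 87937042) had 134, 102 and 106 CPM with 344SQ and 15, 33.3 and 52.2 CPM with 393P (1.78 ± 0.26, adjusted p = 2.98e-05), and Igfbp7 was lower (-1.11 ± 0.21). The groups were apart for both genes.

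Of 23 genes of transforming growth factor beta, 2 were higher and 3 lower (21.7% called, against 4.15% of all genes tested). All 5 kept their calls. The ligand gene Tgfb1 (ENSMUSG00000002603.15, chromosome 7, 25687002 to 25705077) had 59.6, 53.3 and 58.8 CPM with 344SQ and 117, 176 and 164 CPM with 393P (-1.41 ± 0.19, adjusted p = 1.02e-05). Its receptor gene Tgfbr1 was lower (-0.99 ± 0.22) and the co-receptor gene Tgfbr3 higher (0.96 ± 0.18). Inhbb, an activin subunit gene, had 68.9, 67.9 and 88.6 CPM with 344SQ and 28.1, 14.3 and 38.7 CPM with 393P (1.51 ± 0.27). The epidermal growth factor family ligand gene Ereg had 173, 154 and 214 CPM with 344SQ and 82.6, 38.9 and 72.1 CPM with 393P (1.5 ± 0.23), the only ligand of that list to be called. The Hedgehog co-receptor genes Boc and Cdon and the growth factor genes Fgf2 and Fgf7 were called higher, but these calls depended on single libraries. Boc lost its call without 393P replicate 2, Fgf2 without 344SQ replicate 2, Cdon without 344SQ replicate 2 or 3 or 393P replicate 3, and Fgf7 without 344SQ replicate 2 or 393P replicate 2 or 3.

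Of 10 acute phase and complement genes tested 6 were higher and 0 lower (60.0% called, against 4.15% of all genes tested). Their median was 1.21, against 0.01 over all genes. C3, the central complement gene (ENSMUSG00000024164.15), had 201, 159 and 215 CPM with 344SQ and 81.6, 110 and 34.5 CPM with 393P (1.32 ± 0.24, adjusted p = 0.000464). Both lines were far below the 950, 1174 and 984 CPM of CAFs alone. Masp1, a protease gene of the lectin pathway, had 72.0, 78.8 and 29.9 CPM with 344SQ and 8.44, 18.2 and 18.8 CPM with 393P (1.96 ± 0.37). C3 and Masp1 kept their calls, whereas 3 others of the list did not. Serping1 lost its call without 344SQ replicate 2 or any single 393P replicate, Clu without 344SQ replicate 3 (0.78, against 1.36 with it) or 393P replicate 1 or 2, and C1s1 without 344SQ replicate 1 or 3 or 393P replicate 1 or 3. Of 7 chemokine genes tested 0 were called by edgeR, which at 4.15% over all genes is near the background; Cxcl12, a leukocyte attractant, had 196, 272 and 174 CPM with 344SQ and 172, 209 and 158 CPM with 393P (0.24 ± 0.18).

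Csf1, the macrophage growth factor gene, had 333, 518 and 334 CPM with 344SQ and 171, 115 and 177 CPM with 393P (1.36 ± 0.22, adjusted p = 0.000121). Ptgs2, an inducible prostaglandin synthase gene, had 860, 759 and 1173 CPM with 344SQ and 546, 427 and 355 CPM with 393P (1.07 ± 0.19, adjusted p = 0.000361). Il6, a cytokine gene of inflammatory CAFs, went the other way at a low level, with 9.25, 10.9 and 3.73 CPM with 344SQ and 36.6, 30.1 and 15.7 CPM with 393P. Its call (-1.82 ± 0.43, adjusted p = 0.00952) was lost without 344SQ replicate 3, without 393P replicate 1 and with DESeq2. Of 16 inflammatory CAF genes tested 6 were higher and 1 lower (43.8% called), and 5 of the 6 kept their calls. Of 30 interferon response genes listed 7 were tested, and of 20 class I antigen presentation genes 5. Both lists gave 0 calls, which at 4.15% over all genes is near the background. Outside the interferon list, the interferon-inducible gene Ifi204 (-1.67) and the related genes Mnda (-1.34) and AI607873 (-1.45) were lower and kept their calls.

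Several stress response lists held calls above the 4.15% of all genes. Their members were chosen with earlier results of these data known, so this excess is a description. Of 28 immediate early genes, which are induced within minutes by many stimuli including cell handling, 6 were higher and 0 lower (21.4% called), with a median of 0.36. Hypoxia and glycolysis genes gave 3 higher and 1 lower of 28 (14.3%), and NRF2 antioxidant genes 3 higher and 0 lower of 22 (13.6%). Jun had 275, 413 and 250 CPM with 344SQ and 124, 122 and 169 CPM with 393P (1.18 ± 0.19), and Fosb had 799, 1439 and 785 CPM with 344SQ and 451, 622 and 449 CPM with 393P (0.99 ± 0.19). 344SQ replicate 2, the library with the most mitochondrial genome counts, was highest for both; without it Jun differed by 0.92 and Fosb by 0.63, both still called, while the calls of Fos (0.66) and Dusp1 (0.47, against 0.71 with it) were lost. That of Dusp1 was also lost without 393P replicate 1 or 3. The iron storage genes Ftl1 and Fth1 were higher (0.90 ± 0.17 and 0.79 ± 0.17), with Ftl1 overlapped on 26.5% of its exonic length by genes on the other strand, and so was Cdkn1a, the cell cycle inhibitor gene (0.98 ± 0.19). Of 25 cholesterol and fatty acid synthesis genes 3 were lower, Srebf2 and Acly among them. Both of these calls were lost without 344SQ replicate 2 or 393P replicate 2, among others. Among 67 cytosolic ribosomal protein genes, 42 nuclear oxidative phosphorylation genes, 27 lysosome genes, 15 heat shock genes and 12 cell cycle genes, 0 were called by edgeR.

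Of 28 mesenchymal transcription factor genes tested 2 were higher and 4 lower (21.4% called, against 4.15% of all genes tested). Ebf1 (ENSMUSG00000057098.14, chromosome 11, 44617317 to 45008091) had 14.4, 19.4 and 9.33 CPM with 344SQ and 129, 166 and 121 CPM with 393P (-3.30 ± 0.27, adjusted p = 1.06e-09), the only call of this list that was kept without each library. Zeb1, an epithelial-mesenchymal transition factor that fibroblasts also express, had 94.6, 114 and 112 CPM with 344SQ and 180, 179 and 126 CPM with 393P. The call (-0.60 ± 0.17, adjusted p = 0.041) was kept under only 6 of 18 alternatives and was lost without any single 344SQ replicate, without 393P replicate 1 or 2 and without CAFs alone replicate 2 or 3.

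**Figure D4:**
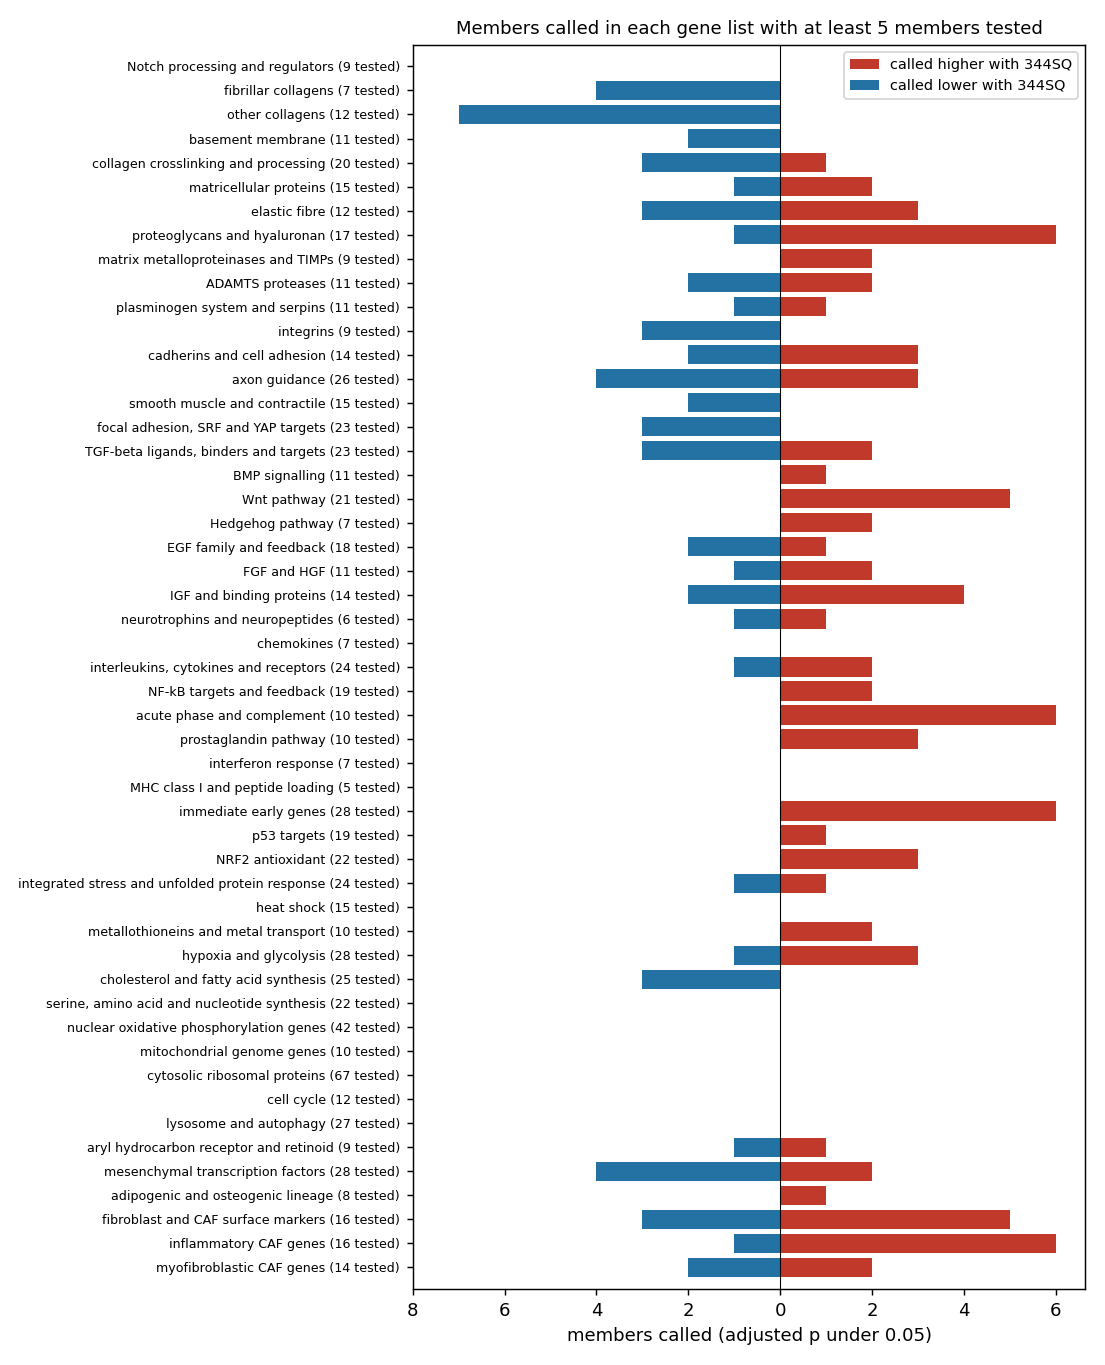
Number of members called higher (red, right) and lower (blue, left) with 344SQ in each gene list with at least 5 members tested; the number tested is given after each name. The other collagens list has the most genes called lower, 7, and proteoglycans, acute phase and complement, immediate early and inflammatory CAF lists each have 6 called higher. Over all genes tested 2.21% were called higher and 1.94% lower.

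The level in CAFs alone places these differences. The 2 comparisons with CAFs alone share those 3 libraries. With 344SQ 467 genes were called against CAFs alone (5.84%) and with 393P 853 (10.7%). Among the 155 genes lower with 344SQ than with 393P, the mean of CAFs alone lay nearer to 344SQ for 130 (83.9%), and among the 177 higher genes for 110 (62.1%), against 53.9% of all genes tested. Of the lower genes, CAFs alone lay below both lines for 87, between them for 59 and above both for 9. Of the higher genes, CAFs alone lay above both lines for 60, between them for 82 and below both for 35. For Col15a1 the difference from CAFs alone was 0.38 ± 0.21 with 344SQ (adjusted p = 0.391) and 3.25 ± 0.19 with 393P (adjusted p = 9.94e-13), and for Adamts1 it was 0.06 ± 0.16 with 344SQ and -2.09 ± 0.18 with 393P. Cd53 showed the opposite arrangement, with 2.75 ± 0.40 for 344SQ (adjusted p = 1.75e-05) and 0.22 ± 0.50 for 393P (adjusted p = 0.872), and so did Penk, with 3.41 ± 0.42 for 344SQ and -1.52 ± 0.73 for 393P.

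The same lines were also set against each other across a membrane, a format meant to let only secreted factors reach the CAFs. There 545 of 14040 genes were called (3.88%), 354 higher with 344SQ (2.52%) and 191 lower (1.36%). The 191 became 367 without 344SQ replicate 4, 127 without 393P replicate 4, 113 without 393P replicate 5 and 343 with no filter, so the overlaps that follow rest on a count that single replicates move. Of the 177 genes higher in aggregates 166 were tested across the membrane, of which 28 were called in the same direction and 13 in the opposite one. Of the 155 lower genes 150 were tested, of which 6 were called in the same direction and 19 in the opposite one. Over the 7827 genes tested in both formats, 34 were called the same way in both and 32 in opposite ways, so calls shared in direction were 10.8% of the aggregate calls and 9.19% of the membrane calls. In a joint fit the difference between formats was called for 511 of 15193 genes (3.36%), including 121 of the 177 higher and 139 of the 155 lower genes. Since these genes were selected on the aggregate difference, which is part of the difference between formats, these 2 shares are a description. The formats also differ in table, sequencing depth, library makeup and CAF level, so contact itself cannot be told apart from these. With 344SQ or 393P, rRNA-like genes took 18.9% to 24.9% of aggregate counts and 0.286% to 0.497% of membrane counts. Mitochondrial mRNA took 1.86% to 2.26% and 4.97% to 6.18%.

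Igfbp5, the largest rise in aggregates, was at 0.208 to 0.694 CPM, median 0.469, with 344SQ and 0.160 to 2.61 CPM, median 1.52, with 393P across the membrane. That difference had the opposite sign and was not called (-1.58 ± 0.50, adjusted p = 0.0816). Postn had 8.31 to 15.7 CPM, median 12.5, with 344SQ and 13.3 to 19.3 CPM, median 16.5, with 393P across the membrane, a difference of -0.44 ± 0.13 (adjusted p = 0.0642). The difference between formats was -3.39 ± 0.23 (adjusted p = 3.08e-14). Il33 had 7.64 to 17.2 CPM, median 15.7, with 344SQ and 8.98 to 16.3 CPM, median 12.7, with 393P (0.07 ± 0.19), and its difference between formats was 4.75 ± 0.52. Notch3 was low in both groups across the membrane, with medians of 2.26 CPM with 344SQ and 2.74 CPM with 393P (-0.22 ± 0.27), and Heyl had 0 counts in all 10 membrane replicates of the 2 lines. Gdpd2 was higher with 344SQ in both formats, by 1.24 ± 0.34 across the membrane (adjusted p = 0.0364), and its difference between formats was not called (adjusted p = 0.0625).

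Il6 was called in opposite directions. Across the membrane it had 31.7 to 36.1 CPM, median 34.4, with 344SQ and 12.5 to 16.5 CPM, median 13.6, with 393P, so that it was higher with 344SQ by 1.29 ± 0.11 (adjusted p = 3.46e-09). In the aggregates it was lower, and the difference between formats was -3.18 ± 0.36 (adjusted p = 2.96e-08). Acta2 had medians of 2721 CPM with 344SQ and 2634 CPM with 393P across the membrane, a difference of 0.12 ± 0.10 that was not called. Col1a1 and Zeb1 were also not called across the membrane, at 0.17 ± 0.06 and 0.14 ± 0.06, while their differences between formats were called (-1.11 ± 0.15 and -0.78 ± 0.15). The epithelial cadherin gene Cdh1 had 4.51 to 17.1 CPM, median 7.65, with 344SQ and 0.609 to 16.5 CPM, median 4, with 393P across the membrane. CAFs alone had 1.79 to 4.37 CPM there, and the part of carcinoma cell RNA in these levels was not tested. The difference between the lines was not called (0.41, adjusted p = 0.756), and Cdh1 was not tested in the aggregates.

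**Figure D5:**
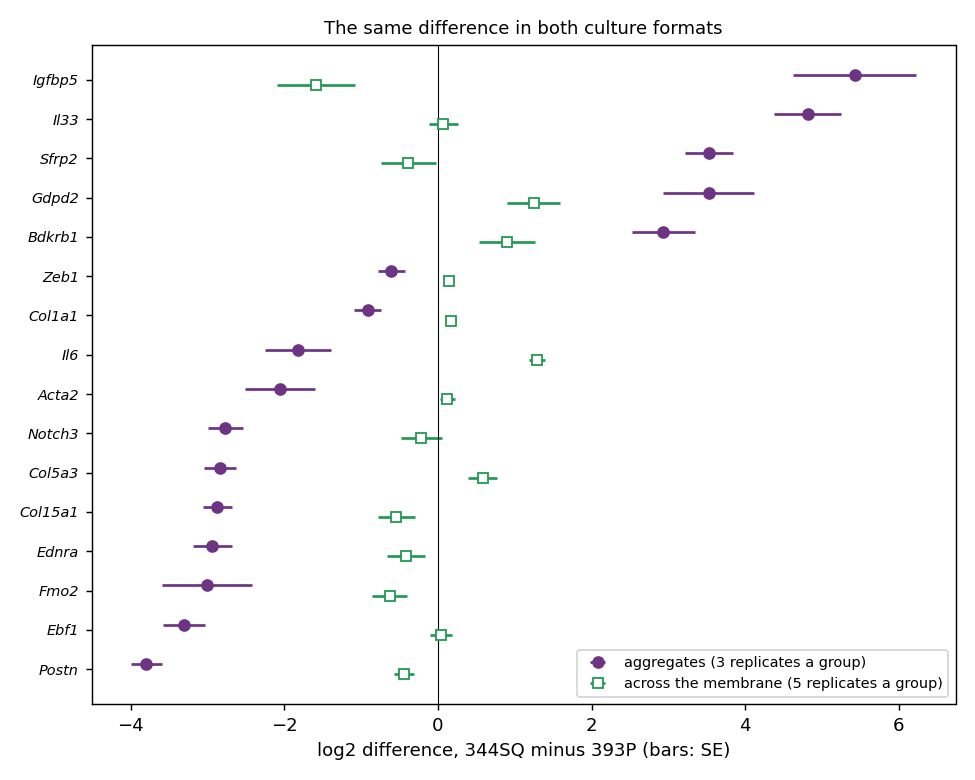
Log2 differences, 344SQ minus 393P, with SE bars, in aggregates (filled circles, 3 replicates a group) and across the membrane (open squares, 5 replicates a group) for 16 genes tested in both formats. The squares lie between -1.58 for Igfbp5 and 1.29 for Il6, whereas the circles run over a range of -3.79 for Postn to 5.42 for Igfbp5.

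Promoters of the called genes were searched for 4 motifs. Windows of 250 bases before to 50 after the start were available for 129 of the 177 higher and 108 of the 155 lower genes, and both strands were searched. TGGGAA, the core bound by the Notch partner RBPJ, was in 21.7% of promoters of higher genes and 16.7% of lower genes, against 25.5% of all 27025 promoters. CATTCC, of TEAD factors, was in 9.3% and 11.1%, against 14.6%. TGANTCA, of AP-1, was in 7.0% and 4.6%, against 7.9%, and TGACGTCA, the cyclic AMP response element, in 3.1% and 1.9%, against 1.8%. No test was made of these shares, and a match in a window is a description of its letters.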

How the data were processed

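CAFs were profiled by RNA sequencing of total RNA. The deposited values are raw counts per gene made by the authors; per the submitters' processing notes the tools include STAR and HTSeq and the build is mm10, with versions not given in the sources used here. Whether counting used strand is not stated in these sources, so reads of overlapping genes cannot be assigned with certainty. IDs were matched to GENCODE M21 (GRCm38) for 48058 of 48440, and promoters are from RefSeq.

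The aggregates were fitted with CAFs alone in edgeR 4.0.16 (R 4.3.3), with filterByExpr, trimmed mean of M values scaling and the quasi-likelihood test. P-values were adjusted by Benjamini-Hochberg over all genes tested and called under 0.05; SE is the log2 difference divided by the square root of F. Counts of the 3 technical libraries were added within each Boyden replicate, and a joint edgeR fit gave the difference between formats. Aggregate libraries held 757717 to 1258751 counts and summed Boyden replicates 4182944 to 8542262, so genes of few counts are less precise in the aggregates. Intervals cover counting error only.

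The genes named are 15 with the largest rise and 15 with the largest fall among calls without overlap, the 10 most abundant calls, up to 5 members of each list, and 6 fixed genes. Members and lists were chosen with earlier results of these data known. DESeq2 1.42.0, other scalings and filters, a replicate block, a carcinoma marker covariate and leaving out each library were tried. The fits were tested on simulated data. A table from an shRNA experiment was not used. Results for some items are not reported here.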

Additional observations from a re-analysis of the deposited data

Results flagged for a closer look

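For 15 of the named genes with membrane values the difference between 344SQ and 393P differed between aggregates and membrane culture. This was called by the joint edgeR test of that difference with Benjamini-Hochberg adjustment. Over all genes the same test called 511 of 15193 (3.36%). Most of these named genes were chosen for a large aggregate difference, which is part of the tested difference, so the count is a description. The difference between formats, as aggregates minus membrane, was positive for Igfbp5 (7.01), Il33 (4.75), Sfrp2 (3.89) and Bdkrb1 (2.03). It was negative for Ebf1 (-3.39), Postn (-3.39), Col5a3 (-3.45), Il6 (-3.18), Notch3 (-2.59), Ednra (-2.56), Fmo2 (-2.46), Col15a1 (-2.37), Acta2 (-2.21), Col1a1 (-1.11) and Zeb1 (-0.78). Of these, Il6 was called in both formats and in opposite directions.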

How the results depend on the processing

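The aggregate count of 332 genes (177 higher, 155 lower) was 248 with DESeq2, 278 with the carcinoma marker covariate and 400 with no filter, and fell to 38 (12 higher, 26 lower) when log2 differences were tested against 1. Leaving out each library gave 244 to 342 genes, 128 to 182 higher and 111 to 164 lower. Across the membrane 545 genes became 762 with no filter, with 343 lower, and 73 (61 higher, 12 lower) with the first technical library alone. Leaving out each membrane replicate gave 378 to 759, 250 to 397 higher and 113 to 367 lower. The difference between formats, 511 genes, ranged over 372 to 502 with a library left out, 161 to 217 higher and 211 to 288 lower. No result reversed. Deviations of same-numbered aggregates correlated at -0.017, 0.012 and -0.030, and those of same-numbered membrane replicates at -0.206 to 0.079. Such correlations cannot show whether the replicate numbers pair the samples. With the replicate block the counts were 321, 426 and 457 for the aggregates, the membrane and the formats. Of 141 named genes called, 95 were kept without each library. Depth limits genes of low level in the aggregates. The causes of these shifts were not tested.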
